A study of Arabidopsis thaliana with 57 samples.

Results

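The leaf of an Arabidopsis thaliana hpca1-1 mutant was examined in a chain of 3 touching plants, after strong light had been applied to a leaf of a wild-type plant of that chain and not to the mutant. The members were the 3 elevated-light and the 3 control libraries of this leaf, chosen by column name and sample title, which makes 6 of the 57 libraries of the study and 6 of the 48 libraries of its chain experiment. Per the labels, the mutant stood between wild-type (Col-0) plants (the WT-hpca1-WT chain), its leaf was systemic leaf 2, and the elevated light was 2000 µmol photons per m2 and s for 30 min on a local leaf. The control libraries came from systemic leaf 2 of hpca1-1 plants in the same kind of chain without the elevated light. All plants had grown for 4 to 5 weeks at 50 µmol photons per m2 and s with 10 h of light and 14 h of dark a day, and in all chains a phosphate-buffered solution with Silwet L-77, a wetting agent, and agarose was put where leaves met. The wild-type leaves used for comparison were systemic leaf 2 of a chain of 3 wild-type plants (the 3WT chain) and systemic leaves 1 and 3 of the WT-hpca1-WT chain, each with 3 control and 3 elevated-light libraries. Every result for the mutant rests on 1 allele, hpca1-1, and each library pooled leaves of 10 to 15 plants. The labels give no time of harvest and no batches of growth or sequencing.

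HPCA1 is a leucine-rich-repeat receptor kinase of the plasma membrane that senses hydrogen peroxide outside the cell. A leaf under excess light sends out waves of reactive oxygen species and calcium, carried from cell to cell with the NADPH oxidase RBOHD, and leaves that received no light then change their gene expression. HPCA1 is known to be needed for this wave to spread within a plant, and the chain with a mutant in the middle addresses how a leaf without normal HPCA1 responds when the signal comes from a touching neighbour.

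The deposited values were FPKM, fragments scaled to transcript length and library size, for 32824 gene identifiers. In the 6 hpca1-1 libraries they summed to between 768412 and 774877, and between 17069 and 17264 genes reached an FPKM of 1. Replicates had a Pearson r of 0.9924 to 0.9949 across 12412 genes, which are not independent of each other. Fragment totals are unknown, and depth relative to the 48 chain libraries was estimated at 0.979, 0.917 and 0.947 in control and at 0.913, 0.841 and 0.896 in elevated light, lower in each elevated-light library than in each control library. The part of this depth difference in the results was not tested. Of the marker lists, the mesophyll sum overlapped between groups (37442 to 38194 FPKM in control and 37642 to 38606 in elevated light). That sum hides changes of opposite sign. RBCS1A and RCA were called higher, by 0.16 and 0.17 (log2), while LHCB1.3 changed by -0.08 and was not called. The root, flower and seed markers were at or near 0. The 2 epidermis markers, both called, summed to 246 to 256 FPKM in control and 265 to 275 in elevated light. The 2 phloem companion cell markers, neither called, summed to 129 to 133 and 120 to 126. Of the 2 senescence markers SAG12 was 0 in all 6 libraries. SAG13, which was called, held 61.9 to 71.8 FPKM in control and 43.8 to 46.4 in elevated light. In leaf pools, fewer cells of a type and less RNA per cell cannot be told apart.

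HPCA1 (AT5G49760) was not absent from the mutant leaf, and its transcript rose in elevated light. The 3 control libraries held 25.2, 24.2 and 24.5 FPKM and the 3 elevated-light libraries 31.5, 32.3 and 33.3 FPKM. Every elevated-light library lay above every control library, and all 6 lay below the other 42 libraries of that experiment, all wild type, which ranged from 43.4 to 61.4 FPKM. The group means were 24.6 ± 0.537 and 32.4 ± 0.891 FPKM (SD, n = 3 each), and the change was 0.38 ± 0.04 on the log2 scale (SE, limma adjusted p = 1.99e-09). The exact two-sided permutation test over the 6 libraries gave p = 0.1, the smallest that 3 against 3 allows. The mutant leaf held 46.2% of the wild-type level of systemic leaf 2 in control light and 66.4% in elevated light. In the wild-type leaf the means were 53.3 and 48.7 FPKM, and the light response differed between mutant and wild type by 0.51 ± 0.06 (log2, SE, limma adjusted p = 7.9e-09). The values check the label by level only, since where the hpca1-1 lesion lies in the transcript is not given in the sources used here.

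**Figure D1:**
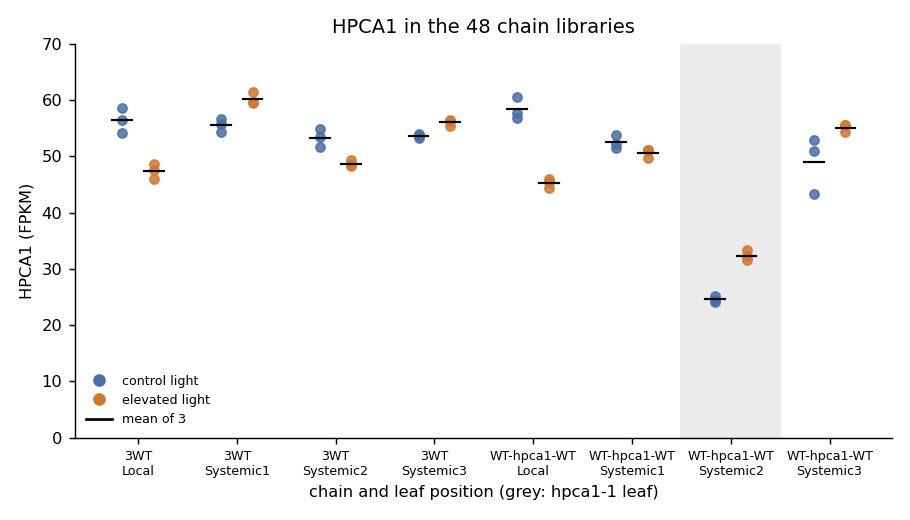
HPCA1 transcript level (FPKM, vertical axis from 0) in every library of the chain experiment by chain, leaf position and light, with 1 point per library and a line at each group mean. The 6 hpca1-1 libraries sit between 24.2 and 33.3 FPKM, below all 42 wild-type libraries, and the elevated-light hpca1-1 libraries sit above the control ones.

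With elevated light on the neighbour, more transcripts fell than rose in the mutant leaf as the deposited values were scaled. Of 18735 genes tested with limma on log2(FPKM + 1), 3353 (17.9%) were called at an adjusted p under 0.05, 1164 higher (6.21%) and 2189 lower (11.7%). The median change over all genes tested was -0.03. With median-of-ratios scaling the split was 1686 higher and 1583 lower, and with quantile normalization 1780 higher and 1518 lower, so the excess of lower calls depends on the scaling. Most changes were small: 89 of the called genes changed by at least 1 on the log2 scale, 15 higher and 74 lower. The 3 and the 3 libraries did not overlap for 6137 genes (32.8%).

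The deepest falls included genes of the circadian clock, of dormancy and of systemic immunity. The following genes are the 12 largest falls among called protein-coding genes that reached a mean of 5 FPKM and did not overlap between groups. AT4G33980 is COR28 in the list of clock output genes counted below, though RefSeq annotates it only as an uncharacterized protein. It held 9.19, 10.3 and 9.72 FPKM in control and 0.366, 0.221 and 0.643 FPKM in elevated light. Its change on the log2 scale was -2.94 ± 0.11 (SE, limma adjusted p = 2.67e-22). AZI1, a lipid-transfer-like protein required for priming of systemic immunity, stood at 37.3, 40.4 and 40.6 FPKM in control. In elevated light it stood at 3.89, 4.83 and 4.85 FPKM, a change of -2.88 ± 0.15 (log2, SE, limma adjusted p = 2.6e-17). Both genes were low in all 3 elevated-light libraries, far below any control library. DRM2, a dormancy-associated gene, was among the abundant transcripts of the leaf, with 575, 604 and 588 FPKM in control. It came to 115, 114 and 115 FPKM in elevated light, 0.194 of the control mean, and -2.35 ± 0.05 on the log2 scale (SE, limma adjusted p = 3e-28). Its relative DRM1 fell from 250.04 ± 11.8 to 70.2 ± 3.93 FPKM (SD, n = 3), a log2 change of -1.82 ± 0.09 (SE). GRP7, a glycine-rich RNA-binding protein that is a slave oscillator of the clock, held 756, 765 and 739 FPKM in control and 201, 186 and 209 in elevated light. The replicates of GRP7 were tight in both groups, and the change was -1.92 ± 0.06 (log2, SE, limma adjusted p = 5.26e-23).

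Clock genes were also among the other 7 of these 12. COR27, a cold-regulated and clock-controlled gene, held 7.76, 9.36 and 8.06 FPKM in control and 1.01, 0.915 and 1.15 in elevated light, a change of -2.21 ± 0.13 (log2, SE). FKF1, a blue-light photoreceptor of flowering time, held 9.18, 8.56 and 10.2 FPKM in control and 1.29, 1.83 and 1.46 FPKM in elevated light, a change of -2.03 ± 0.09 (log2, SE). The pseudo-response regulator PRR3 went from 6.78 ± 0.723 to 1.14 ± 0.190 FPKM (SD, n = 3). By the rule that chose these genes, none could have a control library as low as any elevated-light library. AT1G07050, of the CCT motif family, changed by -2.23, AT1G15125, of the methyltransferase superfamily, by -2.05, and AT4G16260, of the glycosyl hydrolase superfamily, by -1.81 on the log2 scale. AT3G12030, a putative coiled-coil transmembrane protein, held 6.38, 6.35 and 7.12 FPKM in control and 2.32, 2.28 and 0.0557 in elevated light, with a single elevated-light library near 0. Its call was lost under some alternative settings.

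**Figure D2:**
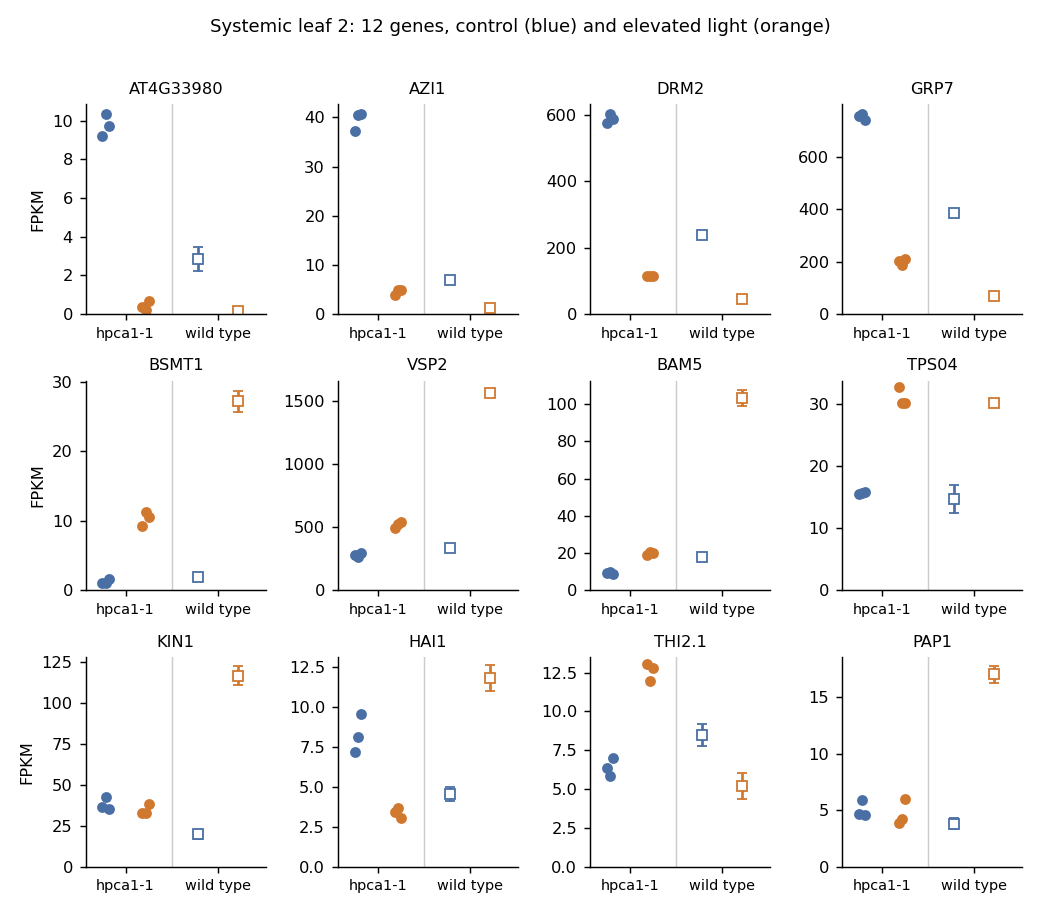
Levels (FPKM) of genes named for the light response of the hpca1-1 leaf, 1 panel per gene, with 1 filled point per library for the hpca1-1 leaf, and an open square with a bar at the mean ± SD of 3 libraries for systemic leaf 2 of the 3WT chain, in control (blue) and elevated light (orange). In the hpca1-1 leaf DRM2 falls from a mean of 589 to 115 FPKM, while BSMT1 rises from 1.24 to 10.4 FPKM.

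Clock genes were counted by the time of day at which they are known to peak, and no test compared the lists: most evening genes fell, and most morning genes were not called. These and the later gene lists were chosen with earlier results of these data known, so their counts are descriptions and not independent support. Of 16 morning clock genes, all tested, 3 rose (LHY, RVE1 and PRR9), 1 fell (ASG4, also called RVE3) and 12 were not called, where 6.21% of all genes tested rose and 11.7% fell, with a median of 0.02 against -0.03 over all genes. CCA1, the partner of LHY in the morning loop, held 49.9 ± 2.22 FPKM in control and 51.2 ± 2.36 in elevated light (SD, n = 3). Of 13 evening clock genes 12 were tested, and 8 fell, 1 rose and 3 were not called, with a median of -0.64. The fallen genes were TOC1, PRR5, PRR3, GI, LUX, ELF3, ELF4 and FKF1. They include the central repressor TOC1, at 15.5, 16.3 and 15.8 FPKM in control and 8.35, 9.45 and 8.34 in elevated light. ELF4, a subunit of the evening complex with ELF3 and LUX, fell from 10.3 ± 1.72 to 2.63 ± 0.389 FPKM (SD, n = 3), a change of -1.63 ± 0.20 (log2, SE), and PRR5 by -1.14. CDF1, a repressor of flowering that FKF1 targets for degradation, was the 1 that rose, by 0.40, and the photoreceptors ZTL and LKP2 and the TCP factor CHE were not called.

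Of 15 clock output genes, all tested, 9 fell, 3 rose and 3 were not called, with a median of -0.20. GRP8, the close relative of GRP7, fell from 257 ± 7.29 to 176 ± 17.7 FPKM (SD, n = 3), and CCL, a clock-regulated transcript, from 619 ± 8.93 to 355 ± 15.7 FPKM (SD, n = 3). DJC76, a chloroplast J-domain protein, changed by -1.58 ± 0.11 (log2, SE, limma adjusted p = 2.79e-14). The starch-degrading enzymes GWD1 and BAM3 fell by smaller amounts, with changes of -0.43 and -0.20 (log2). The 3 that rose were COL1, COL2 and BBX25, B-box zinc finger proteins, with changes of 0.15, 0.29 and 0.50 (log2).

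A sequence feature that did not enter the choice of genes was counted in the promoters. The evening element, AAATATCT (AGATATTT on the other strand), is known as the binding site of the morning factors CCA1 and LHY in evening-phased promoters. It was counted on both strands in a window from 250 bases before to 50 bases after the annotated start in the RefSeq annotation of TAIR10.1, and a match is a description of letters only. It was present in 5.65% of 27443 protein-coding windows and in 6.15% of the 17563 windows of tested genes. Among genes called lower it was present in 231 of 2158 windows (10.7%), and among those lower by at least 1 (log2) in 19 of 67 (28.4%). Among genes called higher it was present in 69 of 1153 windows (5.98%), and in 0 of 11 of those higher by at least 1. By the naming rule's lists, 6 of the 12 largest falls and 1 of the 12 largest rises had it. The G-box, CACGTG, which reads the same on both strands, was present in 9.09% of tested windows, 12.4% of those called higher and 10% of those called lower. The CRT/DRE core CCGAC, bound by CBF and DREB factors, was present in 16.7% of tested windows, 14.9% of those called higher and 17.5% of those called lower. The 250 bases before the start are given for 3 of the deep falls, because GRP7 and FKF1 hold several copies of the evening element at different distances and AZI1 holds a single one. They are written 5′ to 3′ on the strand of the gene, from RefSeq's TAIR10.1 sequence, with the evening element on either strand in capitals.
GRP7: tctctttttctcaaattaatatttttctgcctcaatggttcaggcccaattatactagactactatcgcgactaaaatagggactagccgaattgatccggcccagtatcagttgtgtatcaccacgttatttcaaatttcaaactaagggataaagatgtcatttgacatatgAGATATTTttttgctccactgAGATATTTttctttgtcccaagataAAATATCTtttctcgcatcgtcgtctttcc
FKF1: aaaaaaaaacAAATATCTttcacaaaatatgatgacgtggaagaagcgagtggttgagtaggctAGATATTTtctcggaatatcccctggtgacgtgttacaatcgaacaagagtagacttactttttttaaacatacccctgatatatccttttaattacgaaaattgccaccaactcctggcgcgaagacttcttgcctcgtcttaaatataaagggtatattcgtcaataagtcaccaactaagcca
AZI1: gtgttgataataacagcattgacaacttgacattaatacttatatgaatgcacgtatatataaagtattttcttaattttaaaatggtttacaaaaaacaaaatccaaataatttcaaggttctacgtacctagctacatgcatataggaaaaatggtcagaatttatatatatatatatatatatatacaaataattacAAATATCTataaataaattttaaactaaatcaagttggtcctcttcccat
The stretches lie at chr2:9266558-9266807 (minus strand) for GRP7, chr1:25508389-25508638 (plus strand) for FKF1 and chr4:7401952-7402201 (minus strand) for AZI1. In GRP7 the 3 copies begin at -76, -55 and -30. In FKF1 the copies before the start begin at -240 and -186, and 1 more begins at the start itself. AT4G33980 and AT1G15125 have their match only after the start.

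Most genes of the dormancy, darkness and sugar starvation list were called lower. Of 17 genes, all tested, 13 fell, none rose and 4 were not called, with a median of -0.41 against -0.03 over all genes. Among all genes tested 11.7% fell and 6.21% rose. DIN1, also known as SEN1 and induced in the dark, held 180.4, 187 and 178 FPKM in control and 63.2, 65.0 and 70.2 in elevated light. DIN6, an asparagine synthetase, held 203, 205 and 202 FPKM in control and 171, 169 and 164 FPKM in elevated light. BCAT2, a branched-chain amino acid transaminase, fell from 9.45 ± 0.956 to 2.59 ± 0.417 FPKM (SD, n = 3) and changed by -1.54 ± 0.11 (log2, SE, limma adjusted p = 1.19e-13). All 3 genes were separate between the groups, though DIN6 changed by only -0.27 (log2). DIN11, a dioxygenase, changed by -1.21, EXL2 by -0.42 and TPS10, a trehalose-phosphate synthase homologue, by -0.44 (log2). The 4 not called were DIN3, TPS9, TPS11 and KMD4.

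Most tested CBF and DREB factors and most cold-regulated genes were called lower, and a link between the lists was not tested. CBF factors bind the CRT/DRE element and switch on COR genes and dehydrins, which protect membranes and proteins in cold and drought. Of 10 CBF and DREB factors 7 were tested, and 5 fell, none rose and 2 were not called, with a median of -0.74. DDF1 held 5.12, 5.68 and 5.26 FPKM in control and 0.975, 1.17 and 0.941 in elevated light, a change of -1.65 ± 0.13 (log2, SE, limma adjusted p = 1.45e-12). CBF1 fell from 3.52 ± 0.383 to 1.70 ± 0.0644 FPKM (SD, n = 3), while CBF2 held 7.93 ± 1.52 and 7.26 ± 0.656 FPKM and was not called. CBF1, CBF2 and CBF3 are near-identical neighbours, so the split of fragments between them is uncertain. Of 15 cold and dehydrin genes 13 were tested, and 11 fell, none rose and 2 were not called, with a median of -0.32. Beside the counts of both lists, 11.7% of all genes tested fell and 6.21% rose. COR413IM1, a chloroplast inner-envelope protein, held 151, 162 and 162 FPKM in control and 83.6, 80.6 and 85.2 in elevated light, a change of -0.92 ± 0.05 (log2, SE, limma adjusted p = 1.27e-17). COR47, a dehydrin, held 379, 385 and 399.9 FPKM in control and 259, 267 and 283 FPKM in elevated light, with every elevated-light library below every control library. RD29A changed by -0.48, COR15B by -0.55 and LTI30 by -0.46 (log2). The 2 not called were COR15A, at 1013 ± 15.2 and 1013 ± 48.4 FPKM, and KIN1, at 38.0 ± 3.85 and 34.8 ± 3.13 FPKM (SD, n = 3). KIN1 and its neighbour KIN2 are near-identical, so their split is uncertain too.

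Defence genes of the jasmonate and ethylene branch, and lipid-transfer proteins, also fell. Of 16 ethylene and defensin genes 15 were tested, and 12 fell, none rose and 3 were not called, with a median of -0.60. The shares over all genes tested were 11.7% for falls and 6.21% for rises. ORA59, the factor that integrates jasmonate and ethylene signals on defensin promoters, held 5.37, 4.82 and 3.94 FPKM in control and 1.09, 1.302 and 0.774 in elevated light. Its change was -1.47 ± 0.15 (log2, SE, limma adjusted p = 1.02e-09). HEL, a hevein-like antimicrobial protein, held 123, 118 and 126 FPKM in control and 54.4, 49.8 and 48.04 FPKM in elevated light. PDF1.2, a plant defensin, held 33.6, 38.1 and 30.1 FPKM in control and 13.4, 11.3 and 16.4 FPKM in elevated light. All 3 were lower in every elevated-light library, but PDF1.2 varied more between libraries and shares sequence with PDF1.2b and PDF1.2c, so the split among them is uncertain. EBF2, an F-box protein that removes EIN3, changed by -0.73, and EIN3 itself, the main transcription factor of ethylene signalling, was not called. Of 14 genes of the AZI1 and lipid-transfer group 10 were tested, and 6 fell, none rose and 4 were not called, with a median of -0.50. Beside AZI1, its neighbour EARLI1 changed by -1.08, LTP2 by -0.63 and LTP5 by -0.48 (log2). DIR1, a lipid-transfer protein of systemic acquired resistance, held 12.4 ± 3.68 FPKM in control and 9.90 ± 3.61 in elevated light (SD, n = 3) and was not called.

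Touch-induced and early wound genes, abscisic acid genes and shade genes leaned the same way in smaller numbers. Of 16 touch and early wound genes, all tested, 7 fell, none rose and 9 were not called, with a median of -0.19. For these 3 lists too, the shares over all genes tested were 11.7% for falls and 6.21% for rises. TCH4, a xyloglucan endotransglucosylase, fell from 13.6 ± 0.448 to 5.13 ± 0.157 FPKM, and PHI-1, a phosphate-responsive gene, from 4.38 ± 0.594 to 0.775 ± 0.282 FPKM (SD, n = 3). WRKY18 and WRKY40, defence regulators that act together, changed by -0.64 and -0.36 (log2). Of 22 abscisic acid genes 18 were tested, and 7 fell, 1 rose and 10 were not called, with a median of -0.14. The 7 became 4 without control replicate 2 or without elevated-light replicate 3, and 5 with median-of-ratios scaling or quantile normalization. Among those that fell were the phosphatases HAI1, HAI2, ABI1 and PP2CA, negative regulators of the hormone's signalling, and HAI1 changed most, by -1.08 ± 0.11 (log2, SE, limma adjusted p = 5.02e-10). ABA1, the zeaxanthin epoxidase at the start of abscisic acid synthesis, was the 1 that rose, by 0.15, and NCED3, the rate-limiting enzyme, was not called. Of 12 shade and growth genes 8 were tested, and 5 fell, none rose and 3 were not called, with a median of -0.30. They included the phytochrome gene PHYA, with a change of -0.28, and HFR1, an inhibitor of PIF factors, with -0.59 (log2).

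The genes that follow are the 12 largest rises by the same rule, and they include enzymes that make methyl salicylate and a terpene volatile. BSMT1, which makes methyl salicylate from salicylic acid, held 1.08, 1.01 and 1.62 FPKM in control and 9.28, 11.3 and 10.5 in elevated light. Its change was 2.35 ± 0.12 (log2, SE, limma adjusted p = 4.57e-18), and the elevated-light mean was 8.38 times the control mean. MSRB7, a methionine sulfoxide reductase that repairs oxidised proteins, held 2.42, 2.61 and 2.74 FPKM in control and 8.58, 8.78 and 10.5 FPKM in elevated light, a change of 1.51 ± 0.16 (log2, SE). TPS04, the geranyllinalool synthase of a herbivore-induced volatile, held 15.5, 15.6 and 15.9 FPKM in control and 32.7, 30.1 and 30.1 FPKM in elevated light, a change of 0.94 ± 0.07 (log2, SE). In each of these genes the libraries of a group lay close together and the groups were far apart. BAM5, a beta-amylase of the phloem, held 9.52, 9.94 and 8.80 FPKM in control and 19.2, 20.3 and 20.0 FPKM in elevated light. Its change was 1.00 ± 0.07 (log2, SE), and several other named rises were about as large. RAP2.6, an ERF transcription factor, changed by 0.99, AT2G22200, of the Integrase-type DNA-binding superfamily, by 0.97, the transporter ABCG18 by 0.94, and IGMT5, a methyltransferase of indole glucosinolates, by 0.91 (log2). AT5G38130, of the HXXXD-type acyl-transferase family, changed by 1.24. The remaining 3 of the 12 are annotated only as uncharacterized proteins. AT1G07901 was listed at 0 in all 3 control libraries and at 15.7, 19.6 and 33.5 FPKM in elevated light, and AT1G54773 at 4.36, 0 and 0 FPKM in control and 5.62, 14.2 and 9.14 FPKM in elevated light. AT3G27416 held 0.247, 0.209 and 1.12 FPKM in control and 4.66, 5.93 and 4.41 FPKM in elevated light. Since a listed 0 may stand for an estimate that failed, no fold is given here for AT1G07901, and the call of AT1G54773 was lost under some alternative settings.

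Jasmonate genes moved in both directions. Of 29 genes, all tested, 12 rose, 7 fell and 10 were not called, with a median of 0.09 against -0.03 over all genes. Among all genes tested 6.21% rose and 11.7% fell. VSP2, a vegetative storage protein and a standard jasmonate marker, held 278, 267 and 291 FPKM in control and 496, 521 and 540.1 in elevated light, a change of 0.90 ± 0.04 (log2, SE, limma adjusted p = 3.51e-21). VSP1 held 273, 263 and 283 FPKM in control and 454, 467 and 479 FPKM in elevated light. Biosynthesis enzymes that rose were LOX2, AOS, AOC1, JAR1 and JMT, with changes from 0.14 for AOC1 to 0.51 for JAR1 (log2). The enzymes LOX4 and AOC3 fell, with changes of -0.63 and -0.37 (log2), and OPR3 was not called. Among the JAZ repressors JAZ10 rose, JAZ1, JAZ2, JAZ7 and JAZ8 fell and 5 were not called. JAZ8 changed most, by -1.02 ± 0.14 (log2, SE). The catabolic cytochromes CYP94B1 and CYP94B3 rose by 0.74 and 0.56, and CYP94C1 fell. THI2.1, an antimicrobial thionin, rose from 6.39 ± 0.576 to 12.6 ± 0.554 FPKM (SD, n = 3).

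Salicylic acid genes showed no common direction. Of 23 genes, all tested, 4 rose, 6 fell and 13 were not called, with a median of 0.03, which turned slightly negative when 1 library of either group was left out. Among all genes tested 6.21% rose and 11.7% fell. PR1, the standard marker of the pathway, held 87.2, 105 and 108 FPKM in control and 128, 120.3 and 113 in elevated light, a change of 0.27 ± 0.06 (log2, SE, limma adjusted p = 0.00112). PR2 and PR5 were not called, at 449 ± 9.24 and 473 ± 7.10 FPKM and at 449.6 ± 9.89 and 464 ± 19.1 FPKM (SD, n = 3). PAD4, a lipase-like partner of EDS1, and WRKY54 rose with BSMT1 and PR1, and SARD1 and CBP60G, the factors that switch on salicylic acid synthesis, fell, with changes of -0.37 and -0.23 (log2). ICS1, the synthesis enzyme itself, held 22.1 ± 1.35 and 22.5 ± 0.823 FPKM (SD, n = 3) and was not called.

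High-light genes and genes of the reactive oxygen wave moved in both directions, and most of them and of the heat genes were not called. Of all genes tested 17.9% were called in either direction. The called share was larger than that in the high-light and wave lists and smaller in the heat list. Of 21 high-light and oxidative genes 20 were tested, and 3 rose, 3 fell and 14 were not called, with a median of -0.01 whose sign changed with the scaling. ZAT12, a zinc finger factor of systemic acquired acclimation, held 5.44, 5.13 and 7.61 FPKM in control and 7.25, 7.17 and 8.20 in elevated light and was not called (limma adjusted p = 0.0861). The cytosolic ascorbate peroxidase APX1 held 457 ± 15.1 and 460.0 ± 8.78 FPKM, and APX2 was near 0 in both groups. GOLS1, which makes galactinol, PSBS, the sensor of non-photochemical quenching, and AT2G21640 rose by 0.45, 0.16 and 0.39 (log2). RRTF1, also known as ERF109, fell from 10.1 ± 0.672 to 3.36 ± 0.456 FPKM (SD, n = 3), and FER1, a ferritin, changed by -0.54 ± 0.03 (log2, SE). Of 24 heat genes, all tested, 3 fell (HSP70 and the small heat shock genes AT2G29500 and AT1G53540), none rose and 21 were not called, with a median of -0.09. The count of 3 came to 0 when only the groups compared entered the fit. Of 23 genes of the reactive oxygen and calcium wave, all tested, 4 rose, 4 fell and 15 were not called, with a median of 0.01 whose sign changed when a library was left out. RBOHD, the NADPH oxidase of the wave, held 45.5, 42.9 and 43.7 FPKM in control and 31.5, 33.0 and 31.8 in elevated light, a change of -0.45 ± 0.05 (log2, SE, limma adjusted p = 1.08e-08). The aquaporins PIP2;1 and PIP1;4, which pass hydrogen peroxide, rose by 0.33 and 0.23, and MSL3, a mechanosensitive channel of plastids, by 0.17 (log2). GLR3.3 and GLR3.6, glutamate-receptor-like channels of wound signalling, were not called. Of 9 HPCA1 relatives 4 were tested, HPCA1 included, and the other 3 were not called.

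Many photosynthesis genes were called higher by small amounts, in a number that depends on the scaling. Beside the 3 lists that follow, 6.21% of all genes tested rose and 11.7% fell. Of 32 genes, all tested, 20 rose, 1 fell and 11 were not called, with a median of 0.09, and with quantile normalization 10 rose and 3 fell, with a median of 0.0098. RCA, the activase of Rubisco, rose from 5436 ± 73.9 to 6119.5 ± 51.1 FPKM, and CHLH, a magnesium chelatase subunit of chlorophyll synthesis, from 577 ± 20.5 to 692 ± 18.5 FPKM (SD, n = 3). PORB, a protochlorophyllide reductase, was the 1 that fell, with a change of -0.23 (log2). LHCB1 and RBCS copies are near-identical, so which of them changed is uncertain. Of 19 antioxidant genes, all tested, 5 rose, 3 fell and 11 were not called, with a median of 0.03, and CAT3, a catalase whose transcript peaks in the evening, fell from 2132 ± 26.49 to 1469.5 ± 10.98 FPKM (SD, n = 3). Of 16 flavonoid genes 11 were tested, and 2 rose, none fell and 9 were not called, with a median of 0.07 that was 0.023 without control replicate 1 and 0.17 without control replicate 3. CHS, chalcone synthase, the entry enzyme, was at 41.2, 37.0 and 36.4 FPKM in control and 62.7, 61.3 and 55.7 in elevated light, a change of 0.64 ± 0.04 (log2, SE), and PAL1 rose by 0.22.

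**Figure D3:**
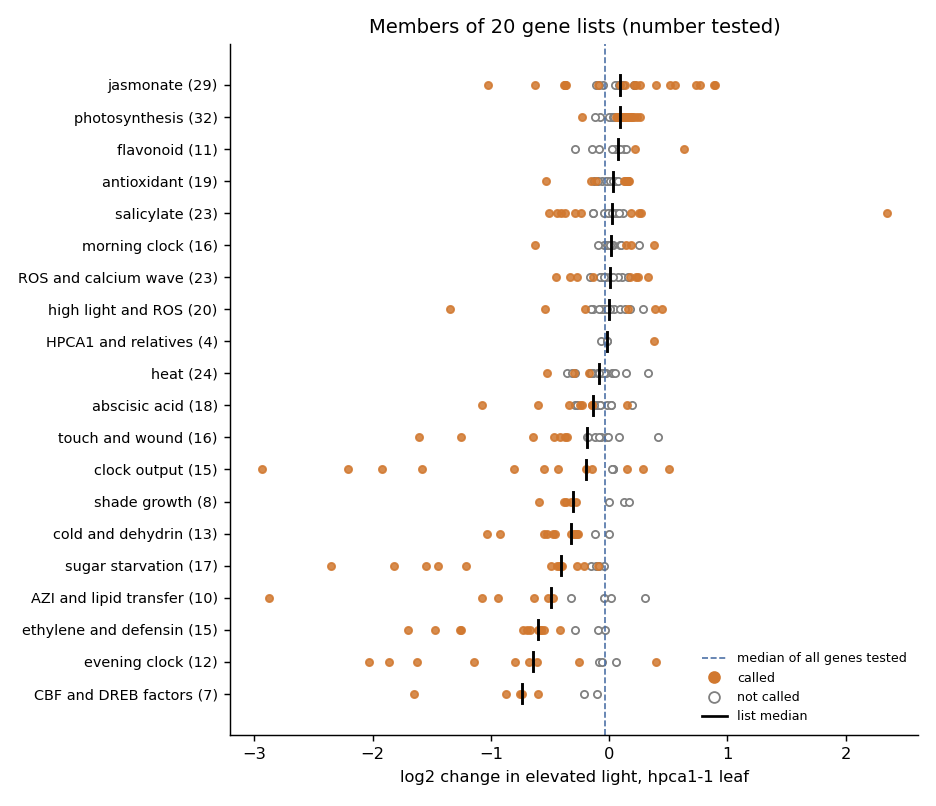
Light response (log2 fold change of FPKM + 1, elevated over control) of every tested member of each gene list in the hpca1-1 leaf, with 1 point per gene, called genes filled, and a mark at each list's median. The evening clock (median -0.64), CBF and DREB (-0.74), ethylene and defensin (-0.60) and sugar starvation (-0.41) lists lie to the left, and photosynthesis (0.09) lies just right of 0.

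The mutant leaf and the wild-type leaf at the same position of the 3WT chain shared many changes and differed in many others. In the wild-type leaf 7724 genes were called (41.2%), 1601 higher and 6123 lower, and the 2 comparisons share no library. Of the genes called in the mutant leaf, 540 were called higher in both, 46.4% of the mutant's and 33.7% of the wild type's higher calls. Likewise 1473 were called lower in both, 67.3% of the mutant's and 24.1% of the wild type's lower calls. Another 229 genes were called higher in the mutant and lower in the wild type, and 133 the reverse. Across 12478 genes the 2 responses had a Pearson r of 0.383, a description across genes that are not independent. The difference of the 2 responses, tested as an interaction contrast, was called for 3531 genes (18.8%), of which 2429 (13%) had a higher and 1102 (5.88%) a lower response in the mutant. That split depends on the scaling: it was 1150 and 1723 with median-of-ratios scaling and 1620 and 1426 with quantile normalization. Among the 74 genes that were called at least 1 (log2) lower in the mutant leaf, 61 were also called lower in the wild type and 36 differed between them, 27 with the larger change in the mutant. Of the 15 at least 1 higher, 9 were also called higher in the wild type.

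**Figure D4:**
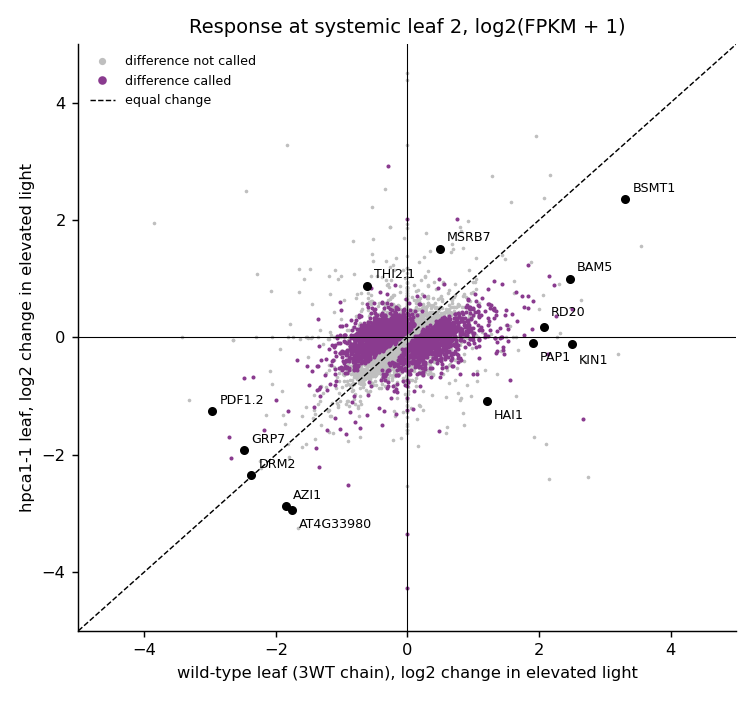
Light response (log2 fold change of FPKM + 1) of each of 18735 tested genes in systemic leaf 2 of the 3WT chain (horizontal axis) and in the hpca1-1 leaf (vertical axis), with genes whose response differed marked and named genes labelled. KIN1, HAI1 and RD20 lie to the right and near or below 0 in the hpca1-1 leaf, and MSRB7 and THI2.1 lie above the diagonal.

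In 2 of the lists every tested gene differed in its light response. All 13 tested cold and dehydrin genes had a lower response in the mutant leaf, against 5.88% of all genes, with a median difference of -0.76 against 0.07 over all genes. In the wild-type leaf 9 of the 13 had risen (8.55% of all genes had) and 2 had fallen (32.7%). All 7 tested CBF and DREB factors had fallen there, with a median of -0.59, so the 2 lists did not move together in the wild type. In control light 6 of these 7 factors were higher in the mutant than in the wild type. KIN1 was at 38.0 ± 3.85 and 34.8 ± 3.13 FPKM in the mutant and at 20.0 ± 2.80 and 117 ± 5.92 FPKM in the wild type (control and elevated light, SD, n = 3). The difference of its responses was -2.62 ± 0.13 (log2, SE, limma adjusted p = 1.91e-18). COR15A was at 1013 and 1013 FPKM in the mutant and at 537 and 1456 in the wild type. The control levels differed as well: in control light all 13 were higher in the mutant than in the wild type (7.83% of all genes tested were), with a median of 0.91 (log2). Because the mutant's control level enters both the response and this comparison, the 2 values are not independent. The mean log2(FPKM + 1) of the 13 genes ran from 7.24 to 7.31 in the mutant control libraries and from 6.81 to 6.93 in the mutant elevated-light libraries. In the wild type it ran from 6.42 to 6.48 in control and from 6.91 to 6.95 in elevated light, so the mean levels of the 2 genotypes lay closer in elevated light than in control light. RD20, a drought-induced caleosin outside the list, was at 107 ± 2.32 and 121 ± 5.22 FPKM in the mutant and at 94.6 ± 1.09 and 400.5 ± 11.01 FPKM in the wild type (SD, n = 3). Among abscisic acid genes 11 of 18 had a lower response in the mutant and none a higher one. HAI1, which fell in the mutant, was at 4.55 and 11.8 FPKM in the wild type, a difference of -2.29 ± 0.15 (log2, SE, limma adjusted p = 1.36e-14).

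Flavonoid genes were the other such list. All 11 tested rose in the wild-type leaf, with a median of 0.72, against 2 in the mutant leaf, and all 11 had a lower response in the mutant, with a median difference of -0.59. In control light 1 of the 11 was called higher and 3 lower in the mutant than in the wild type (7.83% and 12.5% of all genes tested were). These differences of opposite sign are not seen in the list's mean log2(FPKM + 1), which overlapped between the control libraries. That mean ran from 2.79 to 2.94 in the mutant control libraries and from 2.76 to 2.92 in the wild-type ones. In elevated light it ran from 2.89 to 2.95 in the mutant and from 3.91 to 3.95 in the wild type. PAP1, the MYB factor that switches on anthocyanin genes, was at 5.03 ± 0.758 and 4.72 ± 1.15 FPKM in the mutant and at 3.82 ± 0.490 and 17.0 ± 0.759 FPKM in the wild type (SD, n = 3). Its responses differed by -1.99 ± 0.15 (log2, SE, limma adjusted p = 1.74e-13). LDOX and DFR, late anthocyanin enzymes, were at 0.376 and 0.463 FPKM in the elevated-light mutant and at 4.54 and 3.24 FPKM in the elevated-light wild type.

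Most jasmonate genes also had a lower response in the mutant. Lower takes in smaller rises as well as falls: in the mutant leaf 12 of the 29 rose and 7 fell. In the wild type 21 of 29 rose and 2 fell, with a median of 0.52, and 25 of 29 had a lower and 1 a higher response in the mutant, with a median difference of -0.43. VSP2, which rose in both leaves, was at 279 ± 12.1 and 519 ± 21.9 FPKM in the mutant and at 332 ± 16.03 and 1558 ± 31.6 FPKM in the wild type (SD, n = 3). LOX3, a lipoxygenase of jasmonate synthesis, was at 128 ± 7.22 and 137 ± 2.65 FPKM in the mutant and at 137 ± 2.41 and 255 ± 8.92 in the wild type. The list's mean log2(FPKM + 1) ran from 6.22 to 6.32 and from 6.35 to 6.39 in mutant control and elevated light, against 6.44 to 6.49 and 7.01 to 7.02 in the wild type. In control light 20 of the 29 were lower in the mutant than in the wild type (12.5% of all genes tested were) and none was higher. THI2.1 was the 1 with a higher response in the mutant, since it was at 8.47 ± 0.713 and 5.19 ± 0.860 FPKM in the wild type. BSMT1 rose in both leaves and reached 27.2 ± 1.55 FPKM in the elevated-light wild type, a difference of responses of -0.96 ± 0.17 (log2, SE). BAM5 was at 17.9 and 103 FPKM in the wild type, with a difference of -1.46 ± 0.10 (log2, SE).

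Salicylic acid genes went the other way. In the wild type 19 of 23 fell and 1 rose, with a median of -0.43, and 17 of 23 had a higher and 1 a lower response in the mutant, with a median difference of 0.44. PR5, an antifungal thaumatin-like protein, was at 449.6 ± 9.89 and 464 ± 19.1 FPKM in the mutant and at 580.4 ± 15.3 and 344 ± 16.5 FPKM in the wild type (SD, n = 3). WRKY54 rose in the mutant and was at 28.4 and 17.2 FPKM in the wild type, a difference of 0.87 ± 0.08 (log2, SE, limma adjusted p = 4.81e-11). In control light 17 of the 23 were lower in the mutant and none was higher. The list's mean log2(FPKM + 1) was 4.42 to 4.51 and 4.50 to 4.55 in mutant control and elevated light, and 4.74 to 4.75 and 4.40 to 4.44 in the wild type. The wild-type libraries were thus above the mutant ones in control light and below them in elevated light.

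**Figure D5:**
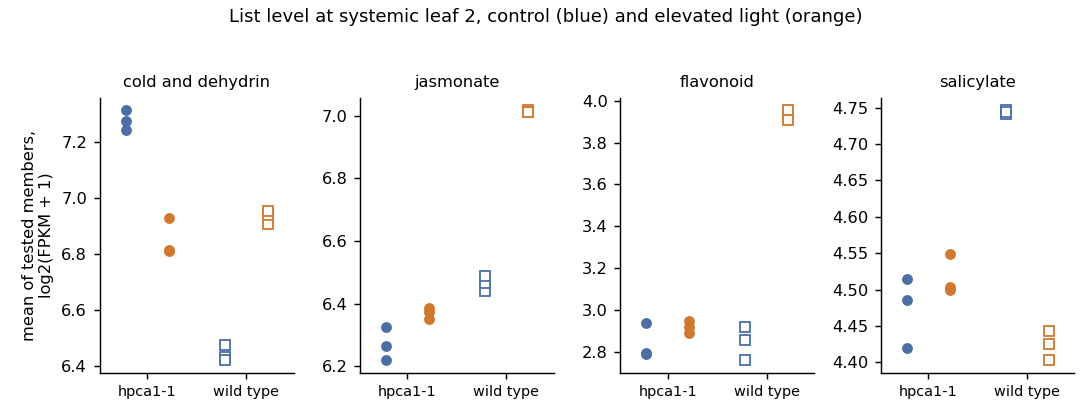
Mean log2(FPKM + 1) over the tested members of 4 gene lists (vertical axis) in each library of the hpca1-1 leaf and of systemic leaf 2 of the 3WT chain, control and elevated light, with 1 point per library. Flavonoid means in elevated light are 2.89 to 2.95 in the mutant and 3.91 to 3.95 in the wild type, and cold and dehydrin means in control light are 7.24 to 7.31 and 6.42 to 6.48.

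Clock, heat and defensin genes gave a mixed comparison with the wild type. Evening clock genes fell in both leaves, 8 of 12 in each, where 11.7% of all genes tested fell in the mutant leaf and 32.7% in the wild type. Of the 12, 10 were not called different. Since 18.8% of all genes tested were called different, this count is near the share over all genes. TOC1 had a difference of 0.02 ± 0.10 (log2, SE), and LUX was the 1 with a lower response in the mutant, -0.58. GRP7 and DJC76 fell less in the mutant, with differences of 0.57 and 0.60, and AT4G33980 and COR27 had differences of -1.19 and -0.87 (log2). In the wild type AT4G33980 was at 2.83 and 0.132 FPKM, levels at which log2(FPKM + 1) understates a fall. For AZI1 the control level of the mutant, 39.5 ± 1.86 FPKM, stood above that of the wild type, 6.84 ± 0.314 FPKM (SD, n = 3), and the elevated-light means were 4.52 and 1.25 FPKM. Of 24 heat genes 9 had a lower and none a higher response in the mutant. HSP90.1, a cytosolic chaperone, was at 4.92 ± 0.420 and 4.43 ± 0.795 FPKM in the mutant and at 6.67 ± 0.535 and 12.04 ± 0.351 FPKM in the wild type (SD, n = 3). The defensins PDF1.2, PDF1.2b, PDF1.2c and PDF1.3 fell in both and fell less in the mutant, PDF1.2 with a difference of 1.71 ± 0.23 (log2, SE, limma adjusted p = 3.13e-07). MSRB7 rose more in the mutant, with a difference of 1.02 ± 0.23 (log2, SE), and GER3, a germin-like protein, differed by 1.29, with changes of -0.39 in the mutant and -1.67 in the wild type. CSLA01, a cellulose synthase-like protein, and ILL5, of the IAA-leucine resistant-like family, had lower responses in the mutant, with differences of -2.02 and -1.90 (log2).

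Within the same chain, the mutant leaf was set against systemic leaf 1, a wild-type leaf. There 5518 genes were called for light (29.5%), and the response was higher in the mutant leaf for 1771 genes (9.45%) and lower for 1489 (7.95%). Jasmonate genes had a lower response in the mutant in 25 of 29 and a higher one in 3, with a median difference of -0.88, and salicylic acid genes a higher one in 16 of 23 and a lower one in 2. HAI1 was at 4.67 and 12.8 FPKM in systemic leaf 1, and its responses differed by -2.36 ± 0.15 (log2, SE). In contrast to the comparison with the 3WT chain, the defensins had lower responses in the mutant than in systemic leaf 1. PDF1.2c was at 6.78 ± 1.33 and 3.80 ± 0.620 FPKM in the mutant and at 1.69 ± 0.216 and 12.3 ± 1.11 FPKM in systemic leaf 1 (SD, n = 3), a difference of -2.99 ± 0.22 (log2, SE). The same contrast gave -2.35 for PDF1.2 and -2.37 for PDF1.2b, copies whose split is uncertain. TPS04 rose in both leaves, by 0.94 in the mutant and by 1.95 in systemic leaf 1. DDF1 and SRO5, of the SIMILAR TO RCD-ONE family, fell in both leaves and fell less in the mutant: DDF1 changed by -1.65 there and by -3.40 in systemic leaf 1, and SRO5 by -1.16 and -2.95 (log2). AT4G16260 fell in the mutant with a change of -1.81, while its change was -0.02 in systemic leaf 1 and -0.35 in systemic leaf 3 (log2).

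The mutant leaf was set last against systemic leaf 3, another wild-type leaf of that chain. Control replicate 3 of systemic leaf 3 stood apart, with a Pearson r across genes of 0.9844 and 0.9858 with the other control libraries of that leaf, which had 0.9948 between them. In this leaf 5149 genes were called for light (27.5%), and the difference of responses was called for 2987 genes (15.9%), 1224 with a higher (6.53%) and 1763 with a lower (9.41%) response in the mutant leaf. Without the library that stood apart it was called for 2962 genes, 1318 higher and 1644 lower, and with only these groups in the fit for 1710. Jasmonate genes had a lower response in the mutant in 24 of 29 and a higher one in 3, with a median difference of -0.63. Evening clock genes had a higher response, that is a smaller fall, in 7 of 12 and a lower one in none. GRP7 was at 669 ± 40.5 and 49.9 ± 5.28 FPKM in systemic leaf 3 (SD, n = 3), and its responses differed by 1.80 ± 0.09 (log2, SE, limma adjusted p = 7.14e-18). Cold and dehydrin genes split, with 7 of 13 higher and 2 lower in response, or 7 and 4 without control replicate 3 of systemic leaf 3. Salicylic acid genes had a higher response in 3 of 23 and a lower one in 10 (4 and 8 without that library, and 6 lower with only these groups in the fit), the opposite lean to that against systemic leaf 1, and the difference between these 2 contrasts was not tested. HAI1 differed by -2.18 ± 0.15 (log2, SE) from systemic leaf 3, so its response was lower in the mutant leaf than in each of the 3 wild-type leaves compared. CYP94B3 differed by -1.86, the U-box ubiquitin ligase PUB19 by -1.83 and the kinase MAPKKK19 by -1.71, all with lower responses in the mutant. PDF1.2c and RbcX1, a Rubisco assembly chaperone, had smaller falls in the mutant: PDF1.2c changed by -0.69 there and by -4.08 in systemic leaf 3, and RbcX1 by -0.79 and -2.59 (log2). The 3 interaction contrasts share the 6 mutant libraries, so their values are not independent of each other.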

How the data were processed

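RNA was sequenced from pooled leaves, and the members and the gene lists were chosen with earlier results of these data known. The authors deposited FPKM values of every gene in each library. Of their 2 tables the one of the chains was used, and the one of the contact experiment was not used here. Per the submitters' processing notes, Trim Galore 0.6.10, FastQC 0.12.1, HISAT2 2.2.1, SAMtools 1.18, Cufflinks 2.2.1, Cuffdiff 2.2.1 and TAIR10 were used, while the annotation and the strand setting are not given in the sources used here, so overlapping genes on opposite strands cannot be told apart. FPKM are scaled within each library, so a rise of abundant transcripts lowers the values of others, and they carry no fragment total, so counting error is unknown. The spacing of a gene's low values across libraries gave the relative depth, with 99.8% of library pairs within 0.1 (log2).

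Columns write HL where titles write EL for elevated light, and each was mapped by its name. Values were transformed to log2(FPKM + 1), which understates the change of low genes, and the 18735 genes that reached 1 FPKM in 3 or more of the 48 chain libraries were tested. The 48 libraries were fitted with limma 3.58.1 (R 4.3.3) and 1 mean for each of 16 groups (lmFit, eBayes with trend, 32 residual degrees of freedom). Tests were two-sided with Benjamini-Hochberg adjustment over all genes tested, and called means an adjusted p under 0.05. The light response of the hpca1-1 leaf, and its difference from the response of 3 wild-type leaves, were fitted, and HPCA1 was also tested by an exact permutation test. Nothing but the word "biological repeat" says how replicates were separated, so p-values measure the spread between these pools.

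Named genes were HPCA1, list members, and the largest changes among called protein-coding genes with a group mean of at least 5 FPKM, 12 each way for light (without overlap of the 3 and 3 libraries) and 6 each way for each difference. 2805 genes met the rule for light. Gene names came from the RefSeq annotation of TAIR10.1, which matched 32539 of 32824 identifiers. 54 tested genes with a mean of at least 5 had an FPKM of 0 in some of the 6 libraries. Alternatives were a pseudocount of 0.1, no filter, a filter at 5 FPKM, median-of-ratios scaling, quantile normalization, no trend, only the groups compared, a minimum change of 1, a replicate block, and each library left out. Python 3.11.15 with pandas 2.3.3, numpy 2.4.6 and matplotlib 3.10.9 was used for names, depth, promoters and plots.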

Additional observations from a re-analysis of the deposited data

Results flagged for a closer look

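Each result here was singled out because the light response of the hpca1-1 leaf differed from that of a wild-type leaf in the test of the difference itself, the limma interaction contrast with Benjamini-Hochberg adjustment. Values are the response of the hpca1-1 leaf minus that of the wild-type leaf, in log2(FPKM + 1), from 3 control and 3 elevated-light libraries per leaf. Where both leaves changed downwards, a higher response is a smaller fall, as for GRP7, DDF1, SRO5, GER3 and RbcX1. Besides genotype, the leaves compared differ in chain or in leaf position, and the part of this was not tested. The numbers of genes that differed were 3531 against systemic leaf 2 of the 3WT chain, 3260 and 2987 against systemic leaves 1 and 3 of the mutant's own chain.

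Against systemic leaf 2 of the 3WT chain, the largest higher responses were those of the defensins PDF1.2c (1.79) and PDF1.2 (1.71), the thionin THI2.1 (1.501), AT1G11850 (1.49), GER3 (1.29) and AT3G27416 (1.27). The call of AT3G27416 was lost under 9 of the alternative settings. The largest lower responses were those of KIN1 (-2.62), HAI1 (-2.29), CSLA01 (-2.02), PAP1 (-1.99), ILL5 (-1.90) and RD20 (-1.90). Among the genes with the largest light response in the mutant, MSRB7 (1.02), AT1G15125 (0.63) and GRP7 (0.57) had higher responses than the wild type, as did HPCA1 (0.51). Lower responses were found for BSMT1 (-0.96), AT5G38130 (-0.59), BAM5 (-1.46), AT2G22200 (-0.34), IGMT5 (-0.53), AT4G33980 (-1.19), AZI1 (-1.03) and COR27 (-0.87). AT4G33980 and AZI1 stood lower in the wild-type leaf, at levels where log2(FPKM + 1) understates a fall. The part of this in their differences was not tested.

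Against systemic leaf 1, the largest higher responses were those of AT1G07901 (6.05), THI2.1 (1.82), SRO5 (1.79), DDF1 (1.76), the receptor-like kinase AT1G56120 (1.57) and the calcium-binding protein AT3G01830 (1.42). The largest lower responses were those of PDF1.2c (-2.99), AT3G12030 (-2.46), PDF1.2b (-2.37), HAI1 (-2.36), PDF1.2 (-2.35) and DIN11 (-2.18). In the mutant leaf AT1G07901 was listed without expression in every control library, and AT3G12030 was near none in a single elevated-light library. An estimate can fail there, so neither value is to be read as a fold.

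Against systemic leaf 3, the largest higher responses were those of AT1G07901 (5.87), PDF1.2c (3.39), AT4G30650 of the low-temperature and salt responsive family (2.02), AT4G33467 (1.92), GRP7 (1.80) and RbcX1 (1.80). The largest lower responses were those of AT3G12030 (-2.34), HAI1 (-2.18), CYP94B3 (-1.86), PUB19 (-1.83), the lipid-transfer protein AT4G12490 (-1.82) and MAPKKK19 (-1.71). AT1G07901 and AT3G12030 had libraries at or near 0 FPKM, where an estimate can fail.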

How the results depend on the processing

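The 3353 genes called for light in the hpca1-1 leaf were 2545 to 2878 when each of the 6 libraries was left out in turn (932 to 1016 higher, 1604 to 1900 lower). With a replicate block they were 3253 (1120 higher, 2133 lower), and with only the groups compared 2407 (860 higher, 1547 lower). Quantile normalization gave 1780 higher. The differences from systemic leaf 2 of the 3WT chain were 3085 to 3287 with a library left out (2071 to 2307 higher, 980 to 1065 lower), and 1150 higher and 1723 lower with median-of-ratios scaling. Those from systemic leaf 1 were 2923 to 2996 (1533 to 1640, 1328 to 1431). Those from systemic leaf 3 were 2637 to 3125 (1101 to 1318, 1497 to 1936), and 1710 (693 higher, 1017 lower) with only the groups compared. A minimum change of 1 (log2) left 89 genes for light (15 higher, 74 lower) and 124 (37, 87), 185 (56, 129) and 169 (50, 119) for the 3 differences. The change of HPCA1 ran from 0.36 to 0.40 with a library left out. The replicate block gave 0.38 for HPCA1 and 3417 (2316 higher, 1101 lower), 3163 (1698, 1465) and 2864 (1183, 1681) for the differences. Same-numbered libraries of the mutant leaf had deviations correlated at 0.175, 0.00168 and 0.127, and 2 of 3 correlated best with their own number. These values do not settle whether the numbers pair the samples. The main fit left the libraries unpaired, and the replicate block paired them by number. No change turned direction under these alternatives for HPCA1, the 24 genes named by size for light or the 12 named by size for each difference, while single list members were not recomputed one by one. For the 24 genes named for light, 326 of 336 values kept their call, and AT1G54773 and AT3G12030 lost it in the rest. The 240 values of the first difference cover 12 genes, and all 9 calls lost among them were those of AT3G27416. Calls of AT1G07901 and AT3G12030 were lost in a few values of the other differences. Among list counts for light not given above, the 5 CBF and DREB genes that fell were 2 of the 4 tested with a filter at 5 FPKM, the 3 morning clock genes that rose were 5 and the 3 antioxidant genes that fell were 1 with median-of-ratios scaling, the 3 high-light genes that rose were 5 with quantile normalization, the 4 salicylic acid genes that rose were 2 and the 5 shade genes that fell were 3 with only the groups compared. The 11 flavonoid genes that differed from the 3WT chain were 7 of the 7 tested with a filter at 5 FPKM. The causes of these shifts were not tested. Fragment totals are unknown, so the precision of low genes cannot be given, and the lower relative depth of the elevated-light libraries goes with the groups.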

Other observations

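Other promoter motifs were counted in the same windows, on both strands. The W-box core, TTGACC or TTGACT, known as the site of WRKY factors, was present in 32.7% of tested windows, 33% of those called higher and 33.1% of those called lower. The GCC box, GCCGCC, known as the site of ERF factors, was present in 2.77% of tested windows, 1.39% of those called higher and 3.75% of those called lower, and in 6 of the 67 windows of genes lower by at least 1 (log2). Single copies of the evening element lie in the windows of PRR5, TOC1, CCL and KIN1.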
